A study of Mus musculus with 82 samples.

Results

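Immediate early genes are switched on within minutes of a stimulus without new protein synthesis, and their transcripts decay fast. Their best known products, Fos and Jun, join as the AP-1 transcription factor, and others (Dusp1, Zfp36, Ier2) shut the response down or take part in it. In T cells Egr1 and Nr4a1 are known for following signalling through the antigen receptor, and Hspa1a encodes an inducible Hsp70 chaperone of the heat shock response. The 10 genes described here (Fos, Fosb, Jun, Junb, Egr1, Nr4a1, Dusp1, Ier2, Zfp36 and Hspa1a) were taken by symbol from the platform annotation. They were chosen with earlier results of these data known. Each of the 10 matched 1 probe set with a single symbol, among 24922 probe sets and 19752 single-symbol genes in all. The question was how far each gene differed between mouse strains relative to the spread between replicate arrays of 1 strain.

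The study profiled naive CD4 T cells of inbred mice on Affymetrix ST1.0 arrays. Per the labels, spleen cells of male mice were sorted as CD3+, CD4+ and CD62L+ and as negative for CD25 and for markers of other lineages. The labels name no treatment and give an age of 6 weeks, where the series text gives 5. Each of the 82 arrays is a pool of mice, which the series calls a biological replicate. The 40 strain groups were 129S1/SvImJ, A/J, AKR/J, BALB/cByJ, BPL/1J, BTBR T+ tf/J, C3H/HeJ, C57BL/10J, C57BL/6J, C57BLKS/J, C57L/J, CAST/EiJ, CBA/CaJ, CBA/J, CE/J, DDY/JclSidSeyFrkJ, FVB/NJ, JF1/Ms, KK.Cg-Ay/J, LGJ, LP/J, MA/MyJ, MRL/MpJ, MSM/Ms, NOD/ShiLtJ, NON/ShiLtJ, NOR/LtJ, NZB/BINJ, NZW/LacJ, P/J, PL/J, PWD/PHJ, RIIIS/J, SEA/GnJ, SJL/J, SM/J, SWR/J and WSB/EiJ, with arrays titled C57BR and arrays titled DBA2. The C57BR-titled arrays carry the background label CBA/CaJ and the DBA2-titled arrays carry DBA/1LacJ, so each pair was kept apart under its title. A total of 38 groups had 2 arrays, C57BL/6J had 5 and SWR/J had 1.

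Values are array intensities normalized by the authors, and array medians ran from 102 to 142. The 8 measured naive CD4 T cell markers averaged 11.67 to 12.17 on the log2 scale across arrays, against a median of 6.82 for all values. The 7 regulatory T cell markers averaged 7.45 to 9.18, although the sort removed CD25+ cells. The mean of 9 B cell markers had a median of 5.75 over arrays but reached 8.45 on replicate 2 of PL/J and 7.13 on replicate 2 of A/J. On the PL/J array the neutrophil, myeloid and erythroid marker means (7.53, 7.23 and 7.44) were also the highest of the series. Results for PL/J and A/J are therefore given with and without these arrays. An array reads bulk RNA, so fewer cells that express a gene and less RNA per cell cannot be told apart.

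The 250 bases before the annotated start are shown for Fos, Jun and Dusp1, whose deviations between replicate arrays correlated between 0.80 and 0.89 with each other, and for Nr4a1, which correlated weakly with Fos and Jun. They are RefSeq sequences of the GRCm38.p6 assembly, and each is written 5′ to 3′ in the direction of the gene. Windows of 8 of the 10 genes were searched, and those of Egr1 and Ier2 were not. Fos lies on the plus strand at chr12:85473640-85473889, Jun on the minus strand at chr4:95052223-95052472, Dusp1 on the minus strand at chr17:26508473-26508722 and Nr4a1 on the plus strand at chr15:101266596-101266845. Capitals mark TGACG (or CGTCA, its complement on the other strand), the core of the cAMP response element, and a TATA box, TATAAA. The Jun window holds neither and so has no capitals.
Fos: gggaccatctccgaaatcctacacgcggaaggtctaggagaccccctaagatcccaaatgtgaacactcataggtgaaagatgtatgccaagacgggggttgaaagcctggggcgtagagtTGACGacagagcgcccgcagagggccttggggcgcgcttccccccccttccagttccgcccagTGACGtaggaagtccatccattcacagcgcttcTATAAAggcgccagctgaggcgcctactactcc
Jun: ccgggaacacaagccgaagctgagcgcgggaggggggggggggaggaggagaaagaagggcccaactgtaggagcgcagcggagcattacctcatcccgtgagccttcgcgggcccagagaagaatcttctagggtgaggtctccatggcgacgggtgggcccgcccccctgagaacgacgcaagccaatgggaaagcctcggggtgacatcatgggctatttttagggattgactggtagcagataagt
Dusp1: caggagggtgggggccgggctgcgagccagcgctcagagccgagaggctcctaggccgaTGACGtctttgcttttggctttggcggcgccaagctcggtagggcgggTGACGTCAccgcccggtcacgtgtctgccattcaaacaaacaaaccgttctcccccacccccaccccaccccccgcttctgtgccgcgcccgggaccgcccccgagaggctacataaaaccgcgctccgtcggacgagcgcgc
Nr4a1: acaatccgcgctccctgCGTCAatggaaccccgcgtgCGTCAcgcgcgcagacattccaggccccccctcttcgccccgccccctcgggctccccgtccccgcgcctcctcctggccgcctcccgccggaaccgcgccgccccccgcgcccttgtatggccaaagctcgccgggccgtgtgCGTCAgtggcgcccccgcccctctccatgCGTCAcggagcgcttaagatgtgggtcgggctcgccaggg

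TGACG, searched on both strands, lay in 5 of the 8 windows (Fos, Fosb, Junb, Nr4a1 and Dusp1), against 17.8% of the 32851 annotated promoters. Nr4a1 held 4 copies and Fos 2. Dusp1 held 3, of which a pair overlap in a full element, TGACGTCA, which 1.55% of all promoters hold. A TATAAA was found in Fos (12.4% of all promoters) and a CArG box, the binding motif of serum response factor, in Zfp36 (1.47%). No window held the AP-1 site TGANTCA (6.75%), and a heat shock element (GAA, TTC and GAA, each 2 bases apart; 0.466%) was not found in any, Hspa1a included. A match describes the letters of this window, and no match says only that the letters are not there.

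Of the 10 genes, 9 differed between strains in limma's F-test over all probe sets (adjusted p below 0.05), where 47.6% of all probe sets did. Fosb, which encodes a partner of Jun, missed the threshold (adjusted p = 0.0548). The arrays of 1 strain also differed widely: 8 of the 10 genes had a replicate SD above that of the median probe set. The replicate SD, pooled over strains on the log2 scale, was 0.64 for Jun, 0.37 for Fos, 0.31 for Dusp1 and 0.30 for Fosb, which placed these genes at the 99.9, 99.2, 98.4 and 98.1 percentiles of all probe sets. It was 0.13 for Egr1 and 0.12 for Zfp36, at the 19.3 and 13.5 percentiles, and the median probe set had 0.16. The SD of the strain means exceeded the replicate SD for 9 of the 10 genes, from 1.04 times for Fos to 1.91 times for Nr4a1, and was 0.88 times for Fosb. In each gene's order of strains, at most 1 of the 39 steps between neighbours was wider than its replicate SD. Those single steps lay between NZB/BINJ and BTBR T+ tf/J for Egr1, between 129S1/SvImJ and MA/MyJ for Nr4a1 and between A/J and CAST/EiJ for Hspa1a. With 39 steps in an order most are narrow even where strains differ, so the steps test no pair of neighbours.

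**Figure D1:**
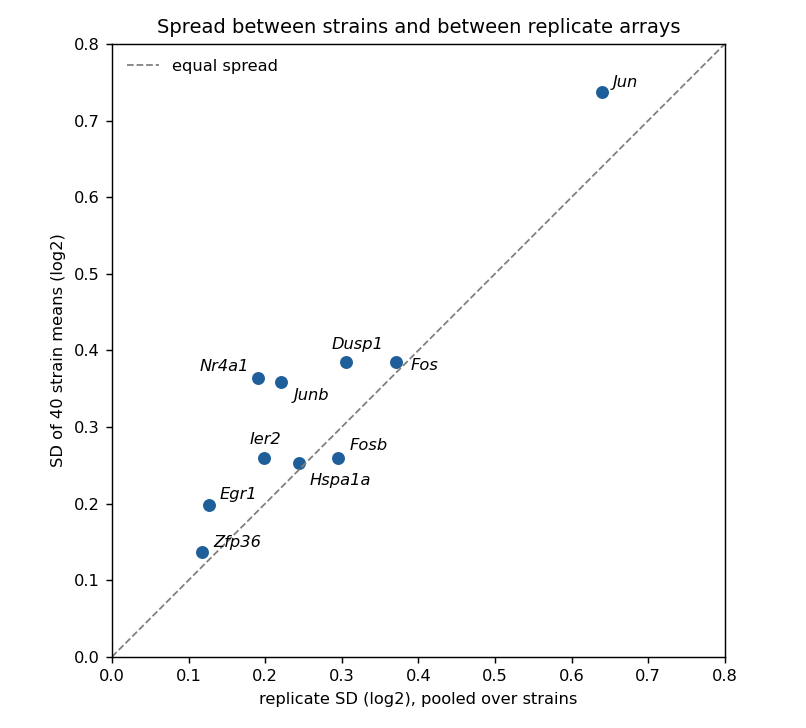
Spread of each of the 10 genes between strains (SD of 40 strain means, log2, vertical axis) against the spread between replicate arrays (pooled SD, log2, horizontal axis), with the dashed line marking equal spread. Jun lies farthest out on both axes (0.74 and 0.64), Nr4a1 and Junb lie well above the line, and Fosb is the gene below it. Strain means carry part of the replicate spread, so the line does not mark the absence of strain differences.

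Jun, the central AP-1 subunit, covered the widest range of the 10. Its intensity ran from 84.2 to 1516 over the 82 arrays, an 18.0-fold range, with a median of 176. Strain means ran from 84.7 in PL/J through 106 in RIIIS/J and 114 in BALB/cByJ to 611 in C57BL/10J, 612 in NZB/BINJ and 671 in A/J (SD of strain means 0.74, intraclass correlation 0.44, adjusted p = 0.000407). The intraclass correlation is the portion of a gene's variance found between strains rather than between arrays of a strain. The lowest strains had closer replicates than the highest. PL/J stood at 84.2 and 85.3 and RIIIS/J at 103 and 110, below the median of 113 for all values. NZB/BINJ, by contrast, stood at 247 and 1516 and A/J at 488 and 925. The arrays of 7 of 38 strains differed more than 2-fold in Jun. The widest were NON/ShiLtJ (149 and 1134), NZB/BINJ and SJL/J (182 and 757), and the median strain differed by 1.28-fold.

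**Figure D2:**
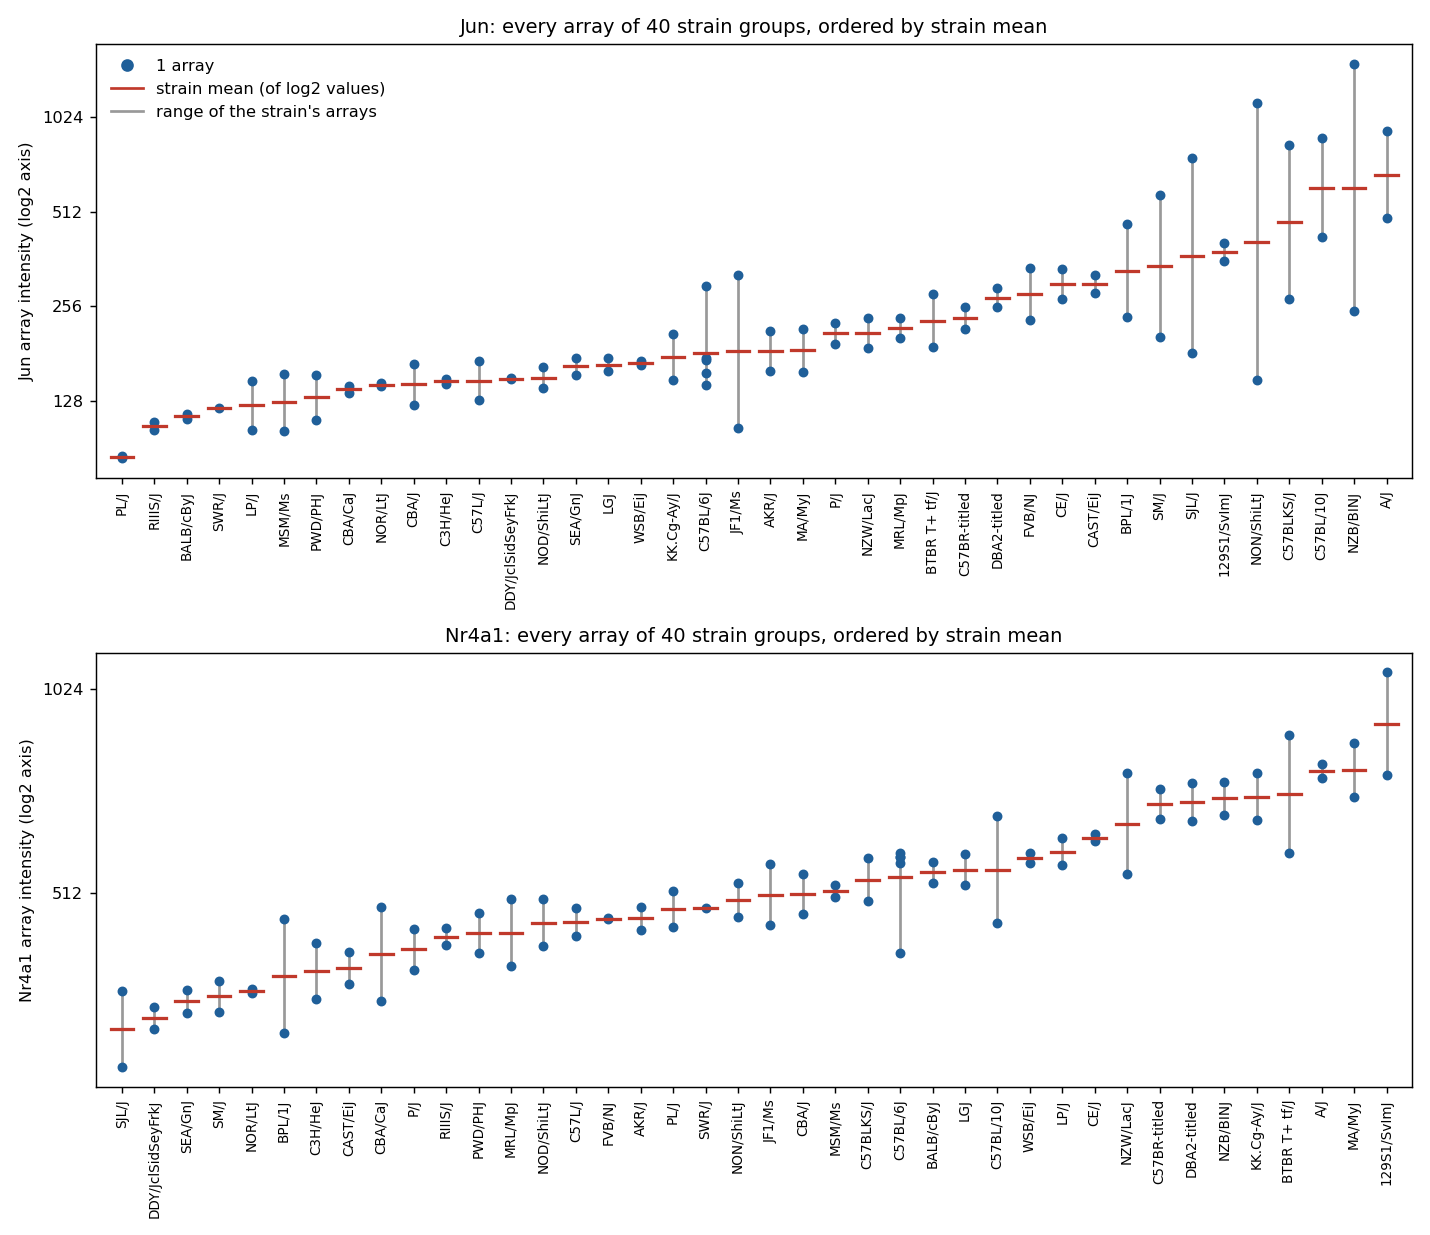
Intensity of Jun (top) and Nr4a1 (bottom) on every array (points, log2 axis) of the 40 strain groups, each ordered by its own strain mean (red bar), with grey lines joining the arrays of a strain. Jun replicates lie up to 7.59-fold apart, mostly among the higher strains (JF1/Ms, near the middle, is also wide), whereas Nr4a1 replicates lie at most 1.49-fold apart among strains with 2 arrays.

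Fos, the AP-1 partner of Jun, was high in a few strains. Its arrays ran from 63.2 to 327 with a median of 93.1. The lowest strains were C3H/HeJ (63.2 and 78.0), CBA/J (73.3 and 74.2) and BALB/cByJ (70.1 and 79.5). The highest were JF1/Ms (144 and 235), A/J (139 and 236) and NON/ShiLtJ (84.4 and 327). The last pair spans most of the range of the series within 1 strain. Fos differed between strains (intraclass correlation 0.36, adjusted p = 0.00376). Its mean lay at the 47.1 percentile of all probe sets, and those of Fosb and Hspa1a at the 51.7 and 53.1 percentiles. These genes were thus read near the level of the median probe set, which limits the reading of their fold ranges.

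Fosb ran from 85.6 to 361 with a median of 116. Its highest array was replicate 2 of NON/ShiLtJ at 361, where replicate 1 stood at 118. C57BL/10J followed with 153 and 247, and PL/J was lowest with 85.6 and 99.8. With an intraclass correlation of 0.22, less of its variance lay between strains than for any other of the 10 genes. The adjusted p was close to the threshold. Fosb missed the threshold under 3 of 10 alternatives and passed under the others: quantile normalization, centring on array medians, leaving out the dimmest probe sets, the replicate block, array weights (which let limma count deviating arrays less), leaving out the arrays with raised B cell markers, and leaving out NON/ShiLtJ and NZB/BINJ, the last chosen after the data were seen. It also missed in 67 of the 82 fits that left out 1 array, and passed in the rest. Its adjusted p ran from 0.000227 to 0.123 with 1 array left out and from 0.01 to 0.113 under the other alternatives.

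Junb, an AP-1 subunit that can oppose Jun at some targets, had replicates that lay closer together. It ran from 181 to 611 with a median of 309. PL/J (181 and 203), WSB/EiJ (212 and 234) and BALB/cByJ (189 and 272) were lowest, and C57BL/10J (443 and 590), A/J (384 and 611) and MRL/MpJ (415 and 543) highest. Its intraclass correlation was 0.68 (adjusted p = 8.41e-08), and no strain had arrays more than 1.63-fold apart.

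Dusp1, a phosphatase that inactivates MAP kinases and so ends the response, ran from 253 to 1258 with a median of 444. C57L/J (253 and 351) and SEA/GnJ (291 and 313) were lowest. A/J (766 and 947), NON/ShiLtJ (526 and 1258) and NZB/BINJ (503 and 1079) were highest, the last 2 strains through 1 array each. Dusp1 had an intraclass correlation of 0.52 (adjusted p = 6.21e-05).

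Ier2, a nuclear protein of the early response, ran from 169 to 432 with a median of 280. WSB/EiJ (169 and 185) and PL/J (190 and 195) were lowest. The DBA2-titled arrays (348 and 386), BTBR T+ tf/J (313 and 429) and 129S1/SvImJ (348 and 382) had nearly equal means at the top. The widest replicates were those of SJL/J (258 and 432). The F-test passed (intraclass correlation 0.54, adjusted p = 6.68e-05).

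Zfp36, which binds AU-rich elements and speeds the decay of cytokine and early response transcripts, varied least. Its arrays ran from 927 to 1604 with a median of 1208, and strain means from 1009 in C3H/HeJ to 1423 in NZB/BINJ, a 1.41-fold range. It still passed the F-test (intraclass correlation 0.45, adjusted p = 0.00501), with an SD of strain means of 0.14.

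Nr4a1, an orphan nuclear receptor also called Nur77, was the member with the largest share of variance between strains. It ran from 284 to 1082 with a median of 502. Strain means were lowest in SJL/J (284 and 367), DDY/JclSidSeyFrkJ (323 and 348) and SEA/GnJ (341 and 369). They were highest in 129S1/SvImJ (763 and 1082), MA/MyJ (709 and 853) and A/J (756 and 793). The intraclass correlation was 0.76 (adjusted p = 5.46e-10).

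Egr1, a zinc finger transcription factor, ran from 393 to 828 with a median of 568. DDY/JclSidSeyFrkJ (393 and 467) and SEA/GnJ (438 and 457) were lowest, as they were among the 3 lowest for Nr4a1. NZB/BINJ (749 and 828), BTBR T+ tf/J (681 and 749) and NZW/LacJ (639 and 762) were highest. No strain had Egr1 arrays more than 1.30-fold apart, and the intraclass correlation was 0.65 (adjusted p = 3.33e-06).

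Hspa1a ran from 85.9 to 285 with a median of 125. NZW/LacJ (199 and 285) and A/J (198 and 207) were highest, and P/J (86.4 and 106) lowest. MRL/MpJ had the widest replicates (105 and 208). Hspa1a passed the F-test with a replicate SD (0.24) about as large as its SD of strain means (0.25; adjusted p = 0.00485). The gene has a near-identical copy, Hspa1b, whose transcripts the probes may share, so the source of its signal is uncertain. A probe set annotated to both copies had strain means that correlated with those of Hspa1a at 0.88 over 40 strains.

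Replicate arrays of 1 strain tended to differ in the same members. In NON/ShiLtJ, replicate 2 was higher than replicate 1 for all 10 genes, and Jun, Fos and Fosb were the 3 single-symbol probe sets with the largest difference of the whole array. Jun stood at 1134 against 149, Fos at 327 against 84.4, Fosb at 361 against 118 and Dusp1 at 1258 against 526. Only 9 of 24922 probe sets were over 2-fold higher on that array, and these 4 were among them. In NZB/BINJ, Jun (1516 against 247) and Fos (273 against 94.7) were again the largest differences, and 8 probe sets in all were over 2-fold higher on replicate 2. In SJL/J, Jun led the differences, but Fos and Dusp1 did not pass 2-fold and 127 probe sets did. C57BL/10J had the next widest mean gap of the 10 genes. There none of them was among the 10 largest single-symbol differences, and 94 probe sets were over 2-fold higher on replicate 1, Jun among them. A/J replicate 1 was higher than replicate 2 for all 10 genes. The A/J arrays also differed over all probe sets, with 1.17% over 2-fold apart. Replicate 2 had the lowest array median of the series (102, against 115 on replicate 1), and its part in these gaps was not tested. Over 38 strains, all 10 members moved the same way in 4 (A/J, BTBR T+ tf/J, NON/ShiLtJ and SEA/GnJ).

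On the NON/ShiLtJ and NZB/BINJ arrays, the pairs with the widest gaps of the 10 genes, the wider response genes differed less. These pairs were picked by the gaps of the 10 genes themselves. A smaller difference in other lists was therefore favoured in advance, and the values are a description. The median difference between the NON/ShiLtJ arrays was 0.57 for the 10 genes on the log2 scale. It was 0.12 for 15 other AP-1 and bZIP factors, 0.09 for 20 other inducible transcription factors, 0.09 for 32 other early response feedback genes and 0.03 for 19 chaperone genes, with a median of 0.01 over all probe sets. In NZB/BINJ the same medians were 0.39, 0.01, -0.07, 0.04 and 0.11. None of these wider lists held a gene over 2-fold higher on the high array of either strain. In A/J the array high for the 10 genes (median 0.29) was also higher for the other AP-1 factors (0.27) and lower for the chaperone genes (-0.52, with 2 of 19 higher). In SJL/J the chaperone median was -0.22 and that of the other AP-1 factors -0.11, against 0.36 for the 10 genes. In C57BL/10J the 10 genes had a median of 0.47. The chaperone genes (0.36) and the 14 genes of ERK and SRF signalling (0.33) came near it there, and the other AP-1 factors (-0.15) did not. The mean of 7 regulatory T cell markers was lower on the high array by 0.34 in NON/ShiLtJ and 0.31 in NZB/BINJ, and its part in the result was not tested. The mean of the B cell markers differed by -0.27 and -0.07.

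Over the 81 arrays of strains with at least 2, deviations from the strain mean correlated at 0.89 between Fos and Jun, 0.87 between Jun and Dusp1, 0.80 between Fos and Fosb and 0.80 between Fos and Dusp1. These correlations share arrays and are a description. Without NON/ShiLtJ and NZB/BINJ, left out after the data were seen, they were 0.79, 0.79, 0.68 and 0.66 over 78 arrays. The deviations of Nr4a1 correlated at 0.12 with Jun, 0.17 with Fos and 0.04 with Fosb, but at 0.34 with Dusp1 (0.41 without the 2 strains) and 0.48 with Egr1. Over the 45 pairs of the 10 genes the median was 0.41, and the median correlation of all probe sets with Fos was 0.07. The level differed by gene. With Hspa1a the median over all probe sets was 0.16 and the 95th percentile 0.59, above its correlations with Jun (0.48) and Fos (0.47). In 26 of 38 strains the arrays differed in the same direction for Jun and Dusp1, in 24 for Nr4a1 and Dusp1, and in 16 for Jun and Nr4a1. Over the 45 pairs this count ran from 14 (Fosb and Nr4a1) to 29 (Jun and Hspa1a). Fos and Jun, the pair with the highest correlation, had 25, so the counts did not follow the correlations closely.

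**Figure D3:**
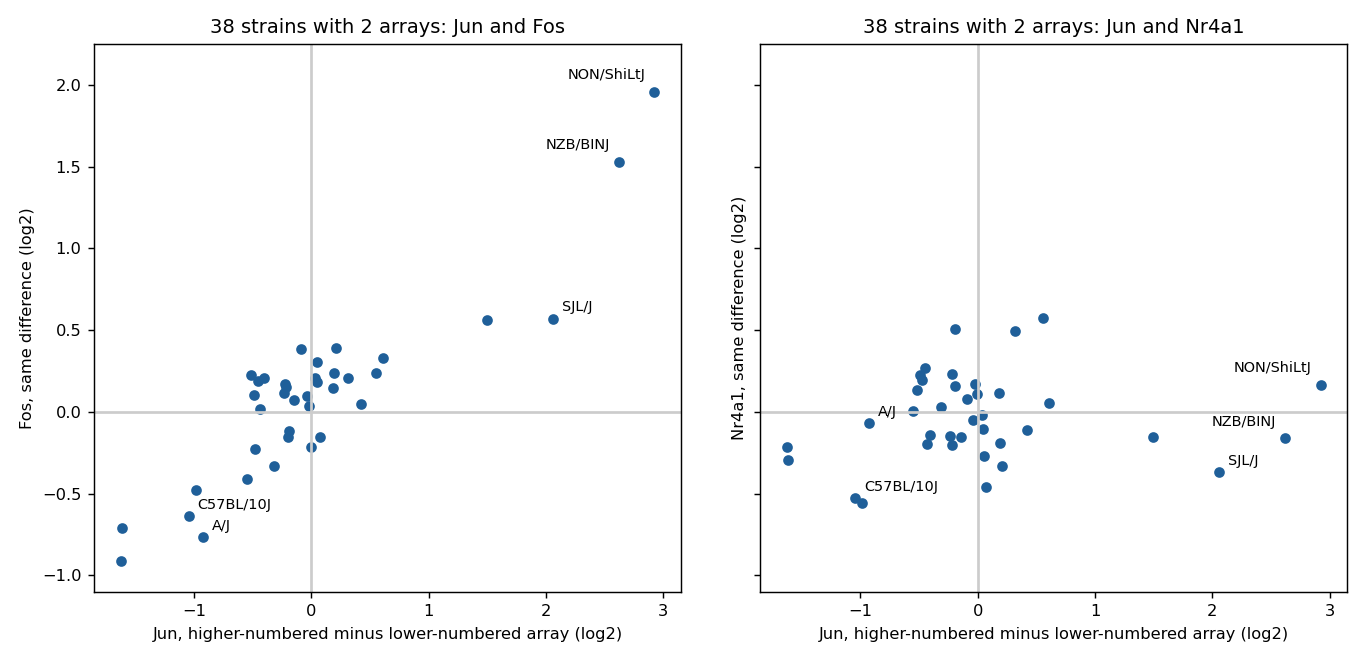
Difference between the 2 arrays of each of 38 strains (higher-numbered minus lower-numbered array, log2) for Jun (horizontal axis) against Fos (left) and Nr4a1 (right), 1 point per strain. NON/ShiLtJ and NZB/BINJ lie at the upper right for Fos, while their Nr4a1 differences are small, upward in NON/ShiLtJ and downward in NZB/BINJ.

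Between strain means, Fos, Fosb, Jun, Junb and Dusp1 correlated with each other between 0.65 and 0.80 over 40 strains, and Junb with Ier2 at 0.75. Egr1 and Nr4a1 correlated with each other at 0.77 but with Jun at 0.22 and 0.27. Hspa1a correlated with Jun at 0.48 and with Zfp36 at -0.21. The median over the 45 pairs was 0.40. The strain means rest on the same arrays as the deviations, so these are not separate evidence.

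**Figure D4:**
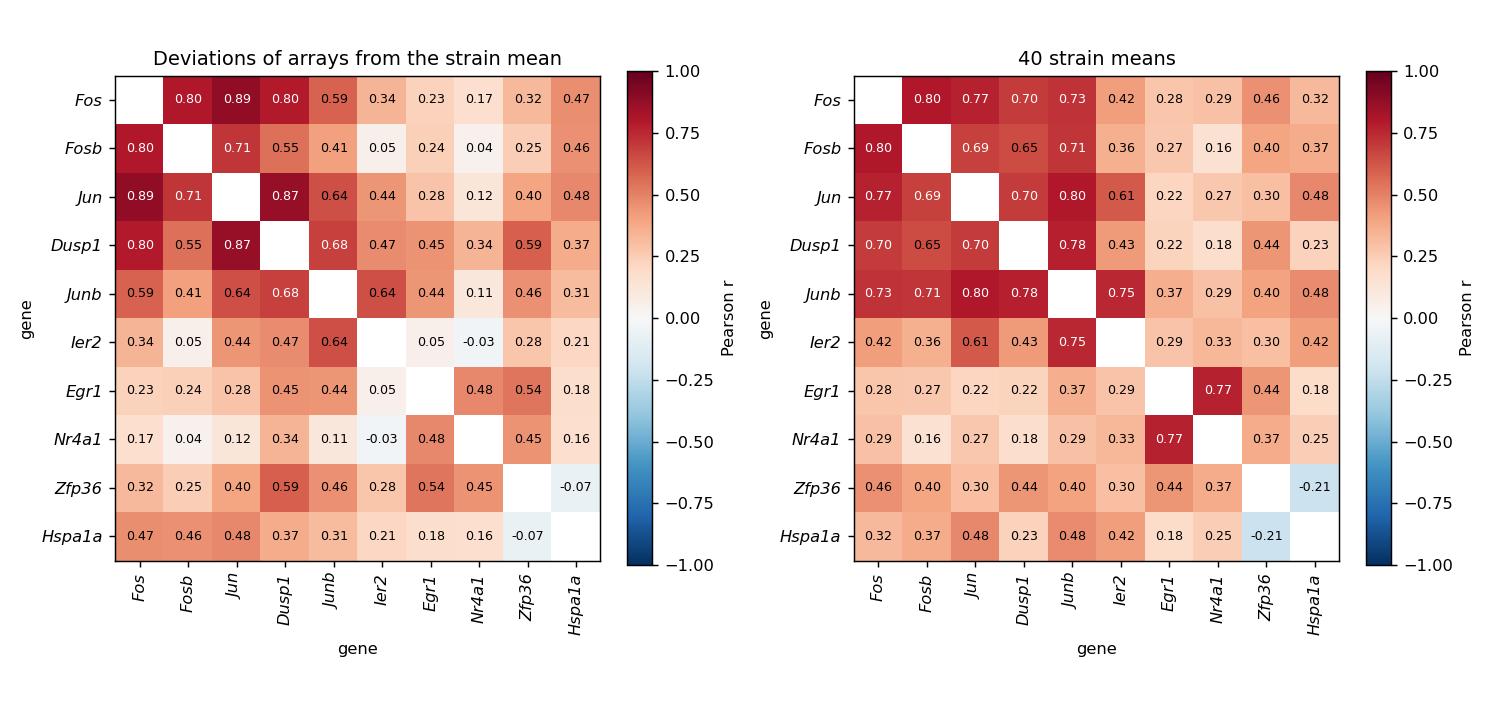
Pearson correlation between the 10 genes for deviations of arrays from the strain mean (left) and for the 40 strain means (right). Among Fos, Fosb, Jun, Dusp1 and Junb the values run from 0.41 to 0.89 on the left and from 0.65 to 0.80 on the right. Egr1 is closest to Nr4a1 on the right (0.77) but to Zfp36 on the left (0.54, against 0.48 for Nr4a1).

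Each strain was then set against the mean of the other 39 strains. Of 400 such tests of a gene in a strain, 31 were higher and 15 lower at an adjusted p below 0.05 (limma), where over all probe sets 3.25% were higher and 3.14% lower. Nr4a1 had the most (8 strains higher, 6 lower), followed by Junb (6 and 3). Jun had 3 and 1, Ier2 2 and 3, Egr1 2 and 2, Fos and Dusp1 3 and 0 each, Fosb and Hspa1a 2 and 0 each, and Zfp36 none. These contrasts share arrays. Each of the 46 calls was lost on leaving out at least 1 array of its own strain, where the remaining array is assumed to vary like the other strains. Under the other 7 alternatives planned, 18 of the 46 held throughout.

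A/J had 6 genes higher and 0 lower, where 2.7% of probe sets were higher in A/J and 2.59% lower. Jun was higher by 1.71 ± 0.42 (log2 difference and SE, n = 2 arrays, adjusted p = 0.0072). Dusp1 was higher by 0.89, Fos by 0.85, Hspa1a by 0.68, Junb by 0.63 and Nr4a1 by 0.61, while Egr1 differed by 0.05 (adjusted p = 0.838). Of 32 other feedback genes, 9 were higher in A/J and 0 lower, among them the MAP kinase phosphatase gene Dusp6 and the signalling regulator Rgs1, where 2 of the 32 were called higher without replicate 2 and 1 with array weights. The count of the 10 genes fell to 0 with array weights, to 1 without replicate 1 and to 3 without replicate 2, the array with raised B cell markers (7.13 against 5.82).

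NZB/BINJ had 5 genes higher (Jun, Junb, Egr1, Nr4a1 and Dusp1) and 0 lower, against 2.68% of probe sets higher and 2.03% lower. Egr1 (749 and 828) and Nr4a1 (668 and 747) were high on both arrays, by 0.48 ± 0.09 (adjusted p = 0.000409) and 0.48 ± 0.13 (adjusted p = 0.0213). Jun and Dusp1 were high through replicate 2. Without replicate 2 Jun differed by 0.26 and Dusp1 by 0.12 (log2), and of the 5 genes Egr1 alone was called. Without replicate 1, Jun and Dusp1 were called and Junb, Egr1 and Nr4a1 were not. Centring each array on its median left Jun, Junb and Egr1.

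BTBR T+ tf/J had 3 genes higher (Egr1, Nr4a1 and Ier2), against 5.46% of probe sets higher and 7.65% lower. Nr4a1 stood at 587 and 874 and was higher by 0.50 ± 0.13 (adjusted p = 0.00726). Jun differed there by 0.13 ± 0.42 (adjusted p = 0.904). None of the 10 genes was called without replicate 2 or with array weights. That array had the lowest mean of the naive CD4 T cell markers of the series (11.67, against 11.81 on replicate 1). With 1.35% of probe sets over 2-fold apart, the strain's arrays also differed the most by that measure among the 38 strains. The part of either in the result was not tested. C57BL/10J had Fosb, Jun and Junb higher, against 1.84% of probe sets higher and 2.82% lower, with Jun at 426 and 878. Without its replicate 1, or with array weights, 1 call was left, and with NON/ShiLtJ and NZB/BINJ left out there were 5.

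PL/J had Jun, Junb and Ier2 lower and none higher, where 12.7% of probe sets were lower in PL/J and 8.85% higher. Jun was lower by -1.35 ± 0.42 (adjusted p = 0.0161) and Junb by -0.74 ± 0.15 (adjusted p = 0.000227). The arrays lay close together for these genes (Jun 84.2 and 85.3, Junb 181 and 203, Ier2 190 and 195), although their B cell marker means were 8.45 and 5.83. Array weights left 1 of the 3 calls, as did leaving out replicate 2 of PL/J and of A/J together, and without replicate 2 of PL/J alone none was left. Of the 32 other feedback genes, 11 were lower in PL/J and 0 higher, which became 2 without replicate 2, 6 without replicate 1, 6 after quantile normalization and 5 with array weights.

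Hspa1a was higher in NZW/LacJ by 0.92 ± 0.17 (adjusted p = 0.000109), where 1.99% of probe sets were higher and 1.88% lower. Other genes of the heat shock response were high in the same strain. Of 19 measured heat shock and chaperone genes, 12 were higher in NZW/LacJ and 0 lower, with a median difference of 0.63, against 0.00 over all probe sets. Hsph1, an Hsp110 partner of Hsp70, stood at 1023 and 1793 and was higher by 1.65 ± 0.22 (adjusted p = 1.22e-07). Dnajb1, an Hsp40 co-chaperone, stood at 993 and 1629 (1.28 ± 0.19), Dnajb4, also an Hsp40, at 384 and 586 (1.07 ± 0.20) and Chordc1, an Hsp90 co-chaperone, at 1408 and 2047 (0.95 ± 0.16). Replicate 2 was the higher array for all 5 genes. Without it 6 of the 19 chaperone genes were called higher and Hspa1a was no longer called. Hspa1a was the 1 gene of the 10 called in NZW/LacJ, where Jun differed by -0.0019 ± 0.42 (log2, adjusted p = 0.999). With limma's trended robust prior, or with an offset of 32 added before log2, 2 genes were called there, and 3 with array weights.

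A/J also had 12 of the 19 chaperone genes higher and 0 lower (median 0.43). Here the higher array was not the one high for Jun. Hsph1 stood at 623 on replicate 1 and 1207 on replicate 2, and Dnajb4 at 297 and 751, whereas Jun stood at 925 and 488. Without replicate 2, the array with raised B cell and erythroid markers, none of the 19 was called, and with array weights 1 was. PL/J had 16 of the 19 lower and none higher (median -0.54), all but Dnajb4, Bag3 and Hspb1, the last 2 named after their values were seen. Dnajb1 stood at 244 and 252 there. Without replicate 2 of PL/J 7 of the 19 were called lower, and 8 without that array and replicate 2 of A/J. Over 40 strains the chaperone genes' strain means correlated with those of Hspa1a at a median of 0.39, against 0.05 for all probe sets. Between replicate arrays the same median was 0.05, against 0.16 for all probe sets.

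**Figure D5:**
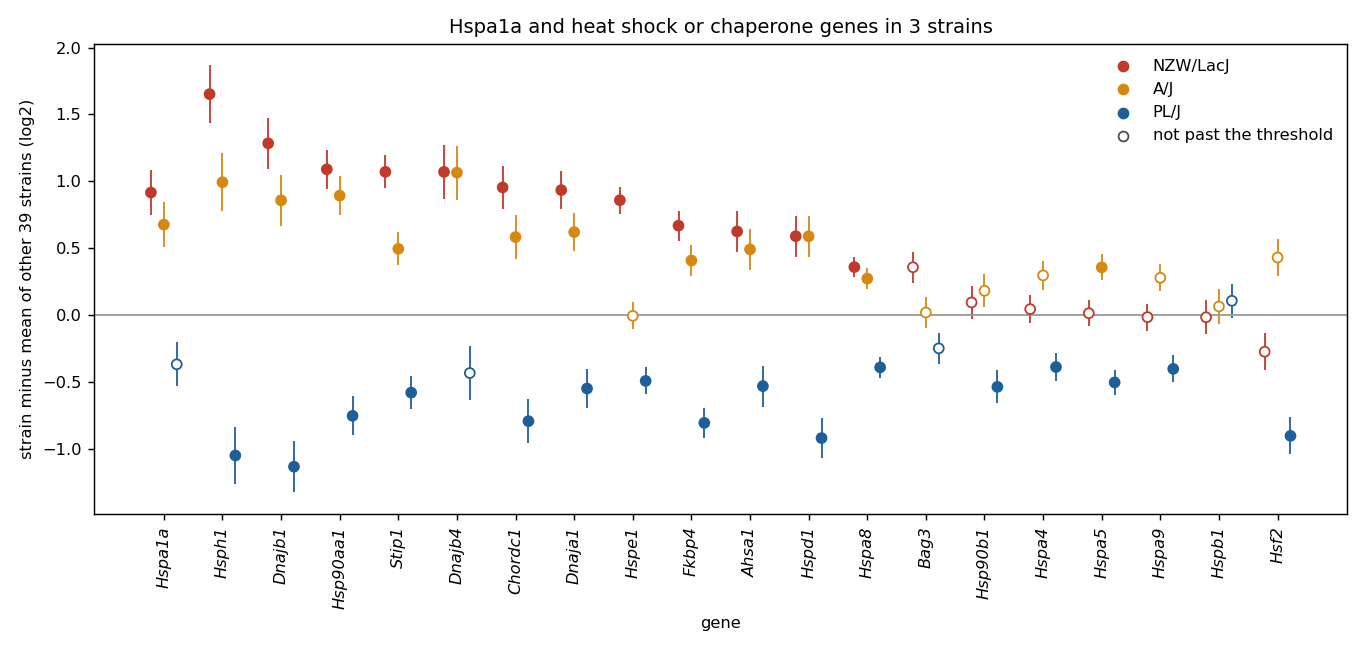
Difference of NZW/LacJ, A/J and PL/J from the mean of the other 39 strains (log2, points; bars are SE) for Hspa1a and 19 heat shock or chaperone genes, filled where the adjusted p is below 0.05. NZW/LacJ and A/J each have 12 of the 19 genes higher and PL/J 16 lower, with Hsph1 at 1.65 in NZW/LacJ.

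JF1/Ms, MSM/Ms, CAST/EiJ and PWD/PHJ derive from other mouse subspecies than M. m. domesticus. Their 4 strain means were set against the 36 remaining ones, so that the strain was the replicate. None of the 10 genes passed the threshold in limma, where 4.96% of all probe sets were higher and 3.77% lower, and 1 had an unadjusted p below 0.05. That was Fos, which was higher by 0.40 ± 0.19 (adjusted p = 0.213). Its strain means were 7.35 in CAST/EiJ and 7.52 in JF1/Ms but 6.61 in PWD/PHJ and 6.64 in MSM/Ms, against 6.63 for the others (log2). The first 2 lay above the mean of the others and the last 2 at about its level. For the other 9 genes the differences ran from -0.31 for Jun to 0.13 for Fosb.

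The lists around these genes varied between strains to differing degrees. Over all probe sets 47.6% passed the F-test. Among other AP-1 and bZIP factors 7 of 15 did, about that share, and the median of their strain SDs was 0.13, where it was 0.14 for all probe sets. The widest were Fosl2 and Jund, AP-1 subunits, Batf, which pairs with Jun in lymphocytes, and Creb1, which binds the cAMP response element. Of other inducible transcription factors 16 of 20 passed, led by the inhibitors Id2 (1007 in C57BLKS/J to 3689 in 129S1/SvImJ) and Id3, with Irf4 and Klf6. Of other feedback genes 26 of 32 passed, led by the ERK phosphatase gene Dusp6 (154 in WSB/EiJ to 586 in NOD/ShiLtJ), the G protein regulators Rgs2 and Rgs1, and Sgk1, a kinase gene. Of 14 measured genes of ERK and SRF signalling 13 passed, with Map2k1, Mapkapk2, Braf and Rps6ka3 the widest. Of 19 chaperone genes 17 passed, of 15 oxidative and DNA damage genes 12 (Trp53inp1, Ddit4, Gclm and Sesn2 the widest) and of 17 activated T cell genes 12 (Cd44, Il2ra, Icos and Ctla4 the widest).

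Likeness was ranked among genes outside the 10 with 1 symbol, an established name and a mean above the median of all values. Of these, the gene whose deviations from the strain mean were most like the mean of the 10 was Ppp1r15a (r = 0.67 over 81 arrays). Ppp1r15a lets protein synthesis resume after stress. It was followed by Clptm1 (0.63), Ap1m1 (0.62), Atp13a2 (0.59), Lrp10 (0.58), Slc9a3r1, Pxn, Zfp358 and Egln2 (0.57 each) and Pak4 (0.55). Among all probe sets 5% lay above 0.35. By strain means, the most alike were Gadd45b, a stress-induced signalling adaptor (0.78 over 40 strains), Jund (0.70), Polr2j and the phosphatase gene Dusp5 (0.67 each), Klf16 (0.66), Mlf2, Gngt2, Polr2f and H1f1 (0.65 each) and Tmem115 (0.64). The members share arrays with these genes, and their own correlations with the mean of the 10 ran from 0.42 for Nr4a1 to 0.91 for Dusp1 for deviations.

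Egr1 had like genes of its own in the lists, named here after their values were seen. The strain means of Egr2 and Egr3, of the same zinc finger family, correlated with Egr1 at 0.81 and 0.76. Those of Nr4a3, of the Nr4a1 family, correlated with Egr1 at 0.69 and those of Nab2, a corepressor of Egr proteins, at 0.62. Their correlations with Fos were 0.20, 0.26, 0.18 and 0.29. Egr4 and Nr4a2 correlated with Egr1 at 0.06 and 0.19, and neither passed the F-test (adjusted p = 0.384 and 0.552). Over all probe sets the correlation of strain means with Egr1 had a median of -0.01, with the 5th and 95th percentiles at -0.32 and 0.37.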

How the data were processed

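Total RNA of sorted splenic naive CD4 T cells was measured on 82 arrays. Per the submitters' processing notes the authors used RMA and Affymetrix Power Tools, while versions, build and filters were not given in the sources used here. Values deposited by the authors are linear intensity values, already normalized, for each probe set on each array. These were taken to log2 without further scaling or filter. Symbols came from the platform annotation (21425 of 24922 probe sets with 1 symbol), and of several probe sets the one with the highest mean was taken.

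Limma 3.58.1 in R 4.3.3 was fitted with 1 coefficient per strain group over all arrays (42 residual degrees of freedom, prior 8.09). The moderated F-test, contrasts of each strain against the mean of the other 39, and non-domesticus strains against the others on strain means were adjusted by Benjamini-Hochberg across every probe set (threshold 0.05). P-values measure the spread between pools. The fits were tested on simulated data. Promoter sequences are from RefSeq (GRCm38.p6). The genes and lists were chosen with earlier results of these data known. Named were all 10 genes, up to 4 genes per list with the largest SD of strain means past the threshold, the 10 most alike genes by each measure, the 3 highest, lowest and most discordant strains per gene, and strains with 3 or more genes called. Exceptions are marked in the text.

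Alternatives were quantile normalization, median centring, leaving out the dimmest 40% of probe sets, an offset of 32, array weights, a block for the replicate number, a trended robust prior, leaving out each array, the arrays with raised B cell markers or single strains, and, chosen after seeing the data, leaving out NON/ShiLtJ and NZB/BINJ. The series text speaks of bone marrow granulocytes, and here the labels were followed. The number of arrays limits the precision.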

Additional observations from a re-analysis of the deposited data

Results flagged for a closer look

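C57BL/6J is the group with 5 arrays, where 1 array far from the others can be told. For Jun, replicate 5 stood at 298 while the other 4 lay between 144 and 175, and its gap to the next array was 0.729 of the group's log2 range. For Nr4a1, replicate 1 stood at 417 while the other 4 lay between 567 and 586, a gap of 0.901 of the range. The critical value for 5 samples is 0.71. All 10 genes were looked at, and chance puts about 1 in 20 groups past this value. Replicate 5 was also the highest for Fos, Fosb and Hspa1a, and replicate 1 the lowest for Junb, Egr1 and Dusp1, without passing the critical value. Replicate 5 had the highest array median of the series (142, where the other 4 had 102 to 110). It also had the highest B cell (6.08), neutrophil (5.90), myeloid (6.50) and erythroid (6.62) marker means of the group. Its naive CD4 T cell (12.08), NK cell (6.10) and CD8 T cell (7.43) means were the highest as well, while its regulatory T cell mean (8.43) was not. The part of the array median and of these marker means in the result was not tested.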

How the results depend on the processing

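The counts over the 10 genes and all strains stayed within 1.5 times under each alternative run, whereas counts within single strains did not, as given beside them. Genes passing the F-test numbered 9 or 10, and strain calls 41 to 51 against 46, or 42 to 52 with 1 array left out. With the replicate block 10 genes passed the F-test and 44 strain calls were made, and it ended the calls of Nr4a1 in the C57BR-titled arrays and CAST/EiJ and of Dusp1 in NZB/BINJ. Over 36 strains, differences between arrays 2 and 1 correlated across 630 strain pairs with a median of 0.00 (lowest -0.63, highest 0.57). A median near 0 cannot tell whether some of the strains shared handling by number, since positive and negative values cancel in it. Replicate 2 was the higher array for Fos in 26 of the 36 strains and for Zfp36 in 12. For the other genes it was higher in 15 (Jun) to 21 (Fosb and Ier2). Leaving out 1 array put the median pair correlation between 0.34 and 0.43 for deviations and between 0.37 and 0.43 for strain means, and the number of genes differing by subspecies at 0. Under the other alternatives these medians ran from 0.31 to 0.45 and from 0.35 to 0.44. For all probe sets the F-test count was 11853, with 11390 to 13402 when 1 array was left out. Fosb in NON/ShiLtJ turned from 0.79 to -0.0183 without replicate 2 of that strain and was 1.60 without replicate 1. No gene had another single-symbol probe set, so that alternative gave no value. The trended prior, the block and the array weights do not act on pair correlations. With 2 arrays per strain, a strain's own level rests on few pools, and a call made on 1 strain cannot be repeated within it.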
